A study of Saccharomyces cerevisiae with 5 samples.

Results

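Ribosome biogenesis factors are the proteins that process ribosomal RNA and assemble it with ribosomal proteins into the small and large subunits. The 45 such genes followed here, of 6388 gene probes on the arrays of this yeast series, were chosen by name for their known roles and divided into 6 roles. These were the box C/D snoRNP proteins (3 genes), the box H/ACA snoRNP proteins (3), small subunit factors (13), RNA helicases (8), large subunit assembly factors (15) and GTPases (3). Ribosomal RNA is transcribed in the nucleolus, where small nucleolar RNPs guide the modification of its bases and sugars and a large processome cuts out the small subunit RNA. The large subunit precursor matures through a series of helicase and GTPase steps before it is exported. In budding yeast the genes of these factors are known as a regulon that is transcribed together and falls quickly when growth slows, for example under salt.

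All cultures of Saccharomyces cerevisiae had received 0.5 mol/L NaCl for 45 min, so no unstressed sample is part of any comparison. W303 is a common laboratory strain. The strain bdf1Δ lacks BDF1, which encodes a bromodomain protein associated with the general transcription factor TFIID. The strain bdf1Δ+HAL2 has, per the series title, HAL2 overexpressed in bdf1Δ, and HAL2 encodes a salt-sensitive phosphatase of sulphate assimilation. The strain bdf1Δhda1Δ lacks in addition HDA1, the gene of a histone deacetylase. Each array compared a pair of strains in 2 dyes. W303 served as reference for bdf1Δ on 1 array. The strain bdf1Δ was in turn the shared reference for bdf1Δ+HAL2 and for bdf1Δhda1Δ, on a dye-swapped pair of arrays each. A dye-swapped pair was taken, from the wording of the labels, as a repeat of the same samples and counted as 1 replicate. On that reading no p-value could be computed and each SD covers technical variation only.

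Each value is a log2 ratio, the strain named first over its reference, after global loess normalization. It is therefore relative to the trend of spots of like intensity on the array. Bulk cultures were measured, so fewer cells holding an RNA and less of it per cell cannot be told apart. A gene was called when every array of a comparison put it past 2-fold on the same side. Factors not called are given by their values. The targeted genes were read first. BDF1 had a net intensity of 10 in bdf1Δ and 510 in W303, and a log2 ratio of −0.80. MET22, the listed name of HAL2, is not deleted in bdf1Δ, yet it had 15 and 580 there and a ratio of −0.82. The bdf1Δ channel of that array was dim, so the BDF1 values do not show the deletion by themselves. On the dye-swapped pairs no BDF1 spot exceeded background in any strain. MET22 had log2 ratios of 3.83 and 3.62 on the bdf1Δ+HAL2 arrays. No HDA1 spot exceeded background in bdf1Δhda1Δ, and in bdf1Δ on the same arrays 0 and 2 of 3 spots did.

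Of the 45 factors, 42 were measured in bdf1Δ+HAL2 against bdf1Δ, 36 in bdf1Δhda1Δ against bdf1Δ and 39 in bdf1Δ against W303. All comparisons measured 33 of them, and UTP10 (YJL109C), a subunit of the small subunit processome, was measured in none. The factors were well seen on the pairs of arrays. Every one of the 42 and of the 36 lay well above background in both strains, and no spot of a factor was saturated on any array. On the single array, bdf1Δ was not well above background for 19 of the 39. The dim channel was not particular to the factors, as 36.9% of all gene spots there exceeded background in bdf1Δ. The losses came from spots that the image software had not found, and the missing factors were NSR1, RRP9, UTP10, ENP2, DRS1 and NOG2 in bdf1Δ against W303. UTP10, UTP20 and MTR4 (YJL050W) were missing from the bdf1Δ+HAL2 comparison. NSR1, RRP9, UTP10, ENP2, IMP3, SPB4, MTR4, ERB1 and RPF1 were missing from that of bdf1Δhda1Δ.

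Adding HAL2 to bdf1Δ moved no ribosome biogenesis factor past 2-fold, but the factors lay low as a group. Their median log2 ratio was −0.20, against 0.00 over all 4266 measured genes, and it was −0.18 with bdf1Δ+HAL2 in Cy5 and −0.23 with the dyes exchanged. Of the 42 factors 0 were called, where 1.03% of all measured genes were called lower and 0.445% higher. None passed 1.5-fold on both arrays, which 3.77% of all genes did downwards and 2.25% upwards. Below 0 on both arrays lay 34 of the 42, against 34.1% of all genes. Above 0 on both lay 0, against 33.8% of all genes. The values were thus small and mostly of one sign. After print-tip loess, which normalizes each printing block of the slide by itself, the median was again −0.20, with 36 of 42 below 0 on both arrays against 38.6% of all genes.

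**Figure D1:**
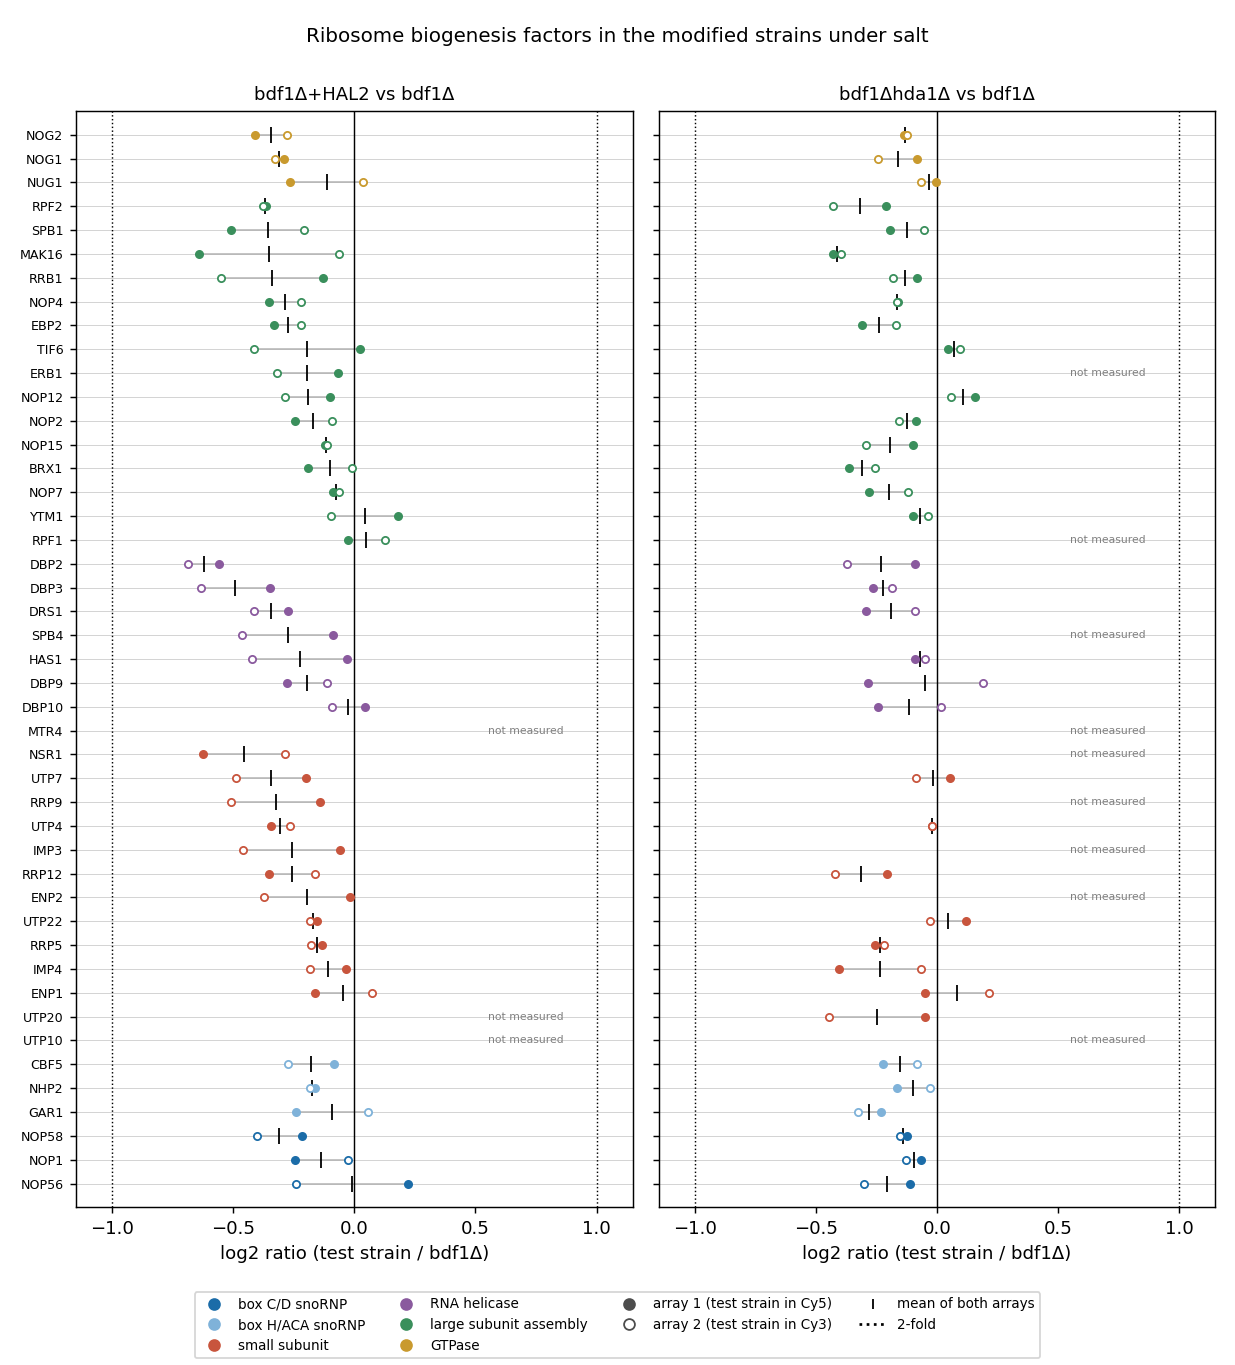
Log2 ratio of each factor over bdf1Δ (x axis) in bdf1Δ+HAL2 (left) and bdf1Δhda1Δ (right), with filled points for the array with the test strain in Cy5, open points for the exchanged array, a tick for their mean, colours for the 6 roles and dotted lines at 2-fold. No point reaches 2-fold lower or higher, and 34 of 42 factors on the left and 29 of 36 on the right lie left of 0 on both arrays.

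By their means, the snoRNP proteins other than NOP58 lay nearer to 0 than the group's median in bdf1Δ+HAL2. NOP1 (YDL014W), the methyltransferase of the box C/D particles and the yeast fibrillarin, had ratios of −0.25 and −0.03. NOP58 (YOR310C), a core protein of the same particles, had −0.22 and −0.40. Its partner NOP56 (YLR197W) had 0.22 and −0.24, so its sign followed the array. CBF5 (YLR175W), the pseudouridine synthase of the box H/ACA particles, had −0.08 and −0.27. Its partner NHP2 (YDL208W) repeated closely at −0.16 and −0.18, and GAR1 (YHR089C), the third of these proteins, had −0.24 and 0.05. Medians were −0.14 for the box C/D and −0.17 for the box H/ACA proteins.

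Small subunit factors had a median of −0.26 over 11 measured genes, 10 of them below 0 on both arrays. NSR1 (YGR159C), a nucleolin-like protein, was the lowest at −0.62 and −0.29, with a mean of −0.46 ± 0.24 (SD of 2 arrays). UTP7 (YER082C), a processome protein, had −0.20 and −0.49, and RRP9 (YPR137W), a protein of the U3 particle, −0.14 and −0.51. These 3 lay low on both arrays, with gaps between the arrays of 0.29 to 0.37. UTP4 (YDR324C), of the processome subcomplex that binds early to the nascent RNA, was tighter at −0.34 and −0.27. RRP5 (YMR229C), which takes part in cuts for both subunits, had −0.13 and −0.18, and UTP22 (YGR090W), another processome protein, −0.16 and −0.18. IMP3 (YHR148W) and IMP4 (YNL075W), partners in the U3 particle, had means of −0.26 ± 0.28 and −0.11 ± 0.11, and ENP2 (YGR145W), a further processome protein, had −0.19 ± 0.25. RRP12 (YPL012W), an export factor, stood at −0.26 ± 0.14. ENP1 (YBR247C), which stays with the late small subunit precursor, was the exception in sign, with −0.16 and 0.07.

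The RNA helicases included the lowest value of the whole group. DBP2 (YNL112W), a DEAD-box helicase, gave net intensities of 4905 in bdf1Δ+HAL2 and 5886 in bdf1Δ on one array, and of 2407 and 4367 on the other. Its ratios were −0.56 and −0.69, mean −0.62 ± 0.09, and 4.50% of all measured genes lay at or below it. DBP3 (YGL078C), which speeds a cut in the spacer between the subunit RNAs, had −0.35 and −0.63. DRS1 (YLL008W), required for the large subunit, had −0.28 and −0.42. These 3 helicases lay further from 0 than the SD between their arrays. SPB4 (YFL002C), HAS1 (YMR290C) and DBP9 (YLR276C) had means of −0.28 ± 0.27, −0.23 ± 0.28 and −0.20 ± 0.12, and DBP10 (YDL031W) had 0.04 and −0.09. SPB4, by little, and DBP9 thus also lay further from 0 than that SD, while HAS1 and DBP10 did not. The role had a median of −0.28.

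Among the 15 large subunit assembly factors the median was −0.20, and 12 lay below 0 on both arrays. RPF2 (YKR081C), which helps to bring the smallest ribosomal RNA into the precursor, was one of the most repeatable at −0.36 and −0.38. SPB1 (YCL054W), a methyltransferase, had −0.51 and −0.21, and RRB1 (YMR131C), the chaperone of a large subunit protein, had −0.13 and −0.55. MAK16 (YAL025C) was the lowest factor of all on one array at −0.64 and near 0 on the other at −0.06. NOP4 (YPL043W) and EBP2 (YKL172W), both needed for the large subunit, had −0.29 ± 0.09 and −0.27 ± 0.08. NOP7 (YGR103W), ERB1 (YMR049C) and YTM1 (YOR272W) form 1 complex, and their means were −0.08, −0.20 and 0.04. YTM1, with 0.18 and −0.10, and RPF1 (YHR088W), with −0.03 and 0.12, were the only factors with a mean above 0. NOP2 (YNL061W), NOP12 (YOL041C), NOP15 (YNL110C) and BRX1 (YOL077C) lay between −0.19 and −0.10, and TIF6 (YPR016C), which keeps the subunits from joining early, had 0.02 and −0.41.

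The 3 GTPases act late on the large subunit precursor. NOG1 (YPL093W) had −0.29 and −0.33 and NOG2 (YNR053C) had −0.41 and −0.28, while NUG1 (YER006W) had −0.26 and 0.04. Their median was −0.31, the lowest of the 6 roles, over only 3 genes.

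How far a single factor can be read in this comparison is limited. Of the 42, 28 had a mean below 0 and further from 0 than the SD between their arrays, against 29.3% of all genes. Over the 42 factors the ratios of the 2 arrays correlated with r = 0.094, and over all measured genes with r = 0.746. These points share their arrays and RNA samples, and the correlations are descriptions. The factors' means spanned a narrower range, with an SD over genes of 0.142 against 0.357, and a narrow range lowers r. Their median SD between arrays was 0.134, against 0.136 over all genes, so single factors repeated about as well as other genes. The common shift was seen on both arrays, while the order among the factors differed from one array to the other.

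In bdf1Δhda1Δ the factors again lay low by a small amount. The median of the 36 measured was −0.15, against 0.01 over 2074 genes, and it was −0.13 on each array. No factor was called, where 0.627% of all genes were called lower and 1.06% higher. None passed 1.5-fold on both arrays, against 2.31% of all genes downwards and 2.84% upwards. Below 0 on both arrays lay 29 of 36, against 36.5% of all genes, and above 0 lay 2, against 38.3%. Print-tip loess brought the median to −0.10 and the number below 0 on both arrays to 22, against 39.8% of all genes. The shift was thus smaller by that normalization, with the same sign.

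Large subunit assembly proteins stood at both ends of this comparison. MAK16 had −0.43 and −0.40, mean −0.41 ± 0.03, and was the lowest of all. RPF2 had −0.21 and −0.43, and BRX1, needed for early large subunit assembly, had −0.36 and −0.25. Print-tip loess moved BRX1 to −0.10 and RPF2 to −0.15 and left MAK16 at −0.38. EBP2, NOP7 and NOP15 stood at −0.24, −0.20 and −0.19. The 2 factors above 0 on both arrays were of this role too. TIF6 had 0.04 and 0.09, and NOP12, an RNA-binding protein of the large subunit precursor, had 0.16 and 0.06. The role's median was −0.16 over 13 genes.

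Box C/D proteins had a median of −0.14 in bdf1Δhda1Δ, with NOP56 at −0.11 and −0.30, NOP58 at −0.13 and −0.15 and NOP1 at −0.07 and −0.13. The box H/ACA median was −0.15. GAR1 was the lowest of these at −0.23 and −0.33, CBF5 had −0.22 and −0.08, and NHP2 had −0.16 and −0.03. All 6 snoRNP proteins therefore lay below 0 on both arrays. By print-tip loess 4 of them did, and the medians of the 2 kinds were −0.05 and −0.07.

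The small subunit factors were more mixed, with a median of −0.13 over 8 genes and 5 below 0 on both arrays. RRP12 had −0.21 and −0.42, and RRP5 had −0.26 and −0.22. IMP4 and UTP20 (YBL004W), a large processome protein, had means of −0.24 ± 0.24 and −0.25 ± 0.28, so the SD between arrays matched or passed the mean. UTP4 lay close to 0 at −0.02 on each array, and UTP7, UTP22 and ENP1 had 1 array on either side of 0. Helicases had a median of −0.15, with DBP2 at −0.09 and −0.37 and DBP3 at −0.26 and −0.19. DRS1 stood at −0.19, DBP10 at −0.12, HAS1 at −0.07 and DBP9 at −0.05, the last with ratios of −0.29 and 0.19. The GTPases NOG1, NOG2 and NUG1 had means of −0.16, −0.13 and −0.03.

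As in the other pair of arrays, the order among the factors repeated weakly. The ratios of the 2 arrays correlated with r = 0.277 over the 36 factors and r = 0.872 over all genes. Here too the factors' means spanned less, with an SD over genes of 0.120 against 0.340. The median SD between arrays was 0.097 for the factors and 0.082 for all genes. A mean below 0 and further from 0 than the SD between arrays was seen in 26 factors, against 32.7% of all genes.

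**Figure D2:**
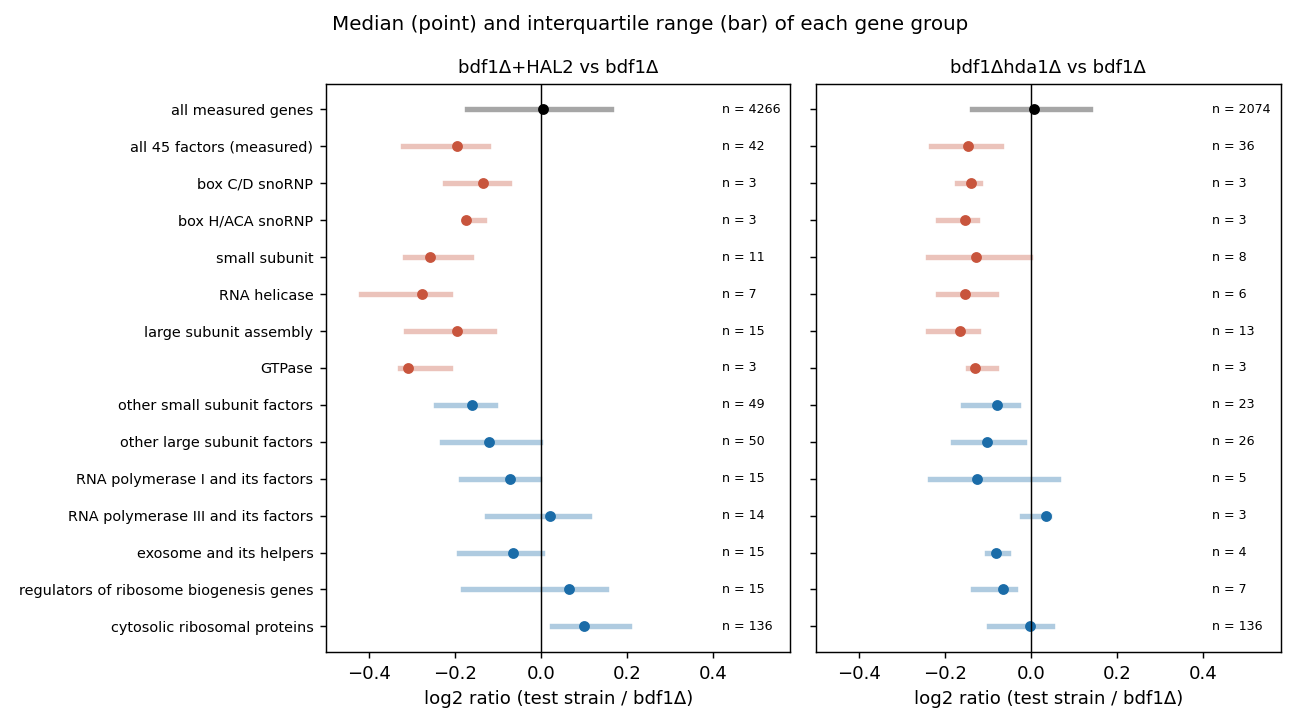
Median log2 ratio over bdf1Δ (points) and interquartile range (bars) for all measured genes (black), the factors and their 6 roles (red) and 7 other gene lists (blue), in bdf1Δ+HAL2 (left) and bdf1Δhda1Δ (right), with the number of measured genes. The factors' medians of −0.20 and −0.15 lie left of 0 in all 6 roles, while the ribosomal proteins lie at 0.10 and at −0.00.

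Side by side, 35 factors were measured in both strains against bdf1Δ. The comparisons share bdf1Δ, so a deviation in that strain would enter both. Below 0 on all 4 arrays lay 24 factors, against 16.8% of the 2059 genes measured in both, and by print-tip loess 18 did, against 19.6%. Under both normalizations 16 did. Ratios in bdf1Δ+HAL2 lay below those in bdf1Δhda1Δ, with no overlap of the arrays, for 12 factors, against 28.7% of all genes. The reverse held for 3, against 28.1% of all genes, and the arrays overlapped for 20. By print-tip loess the numbers were 16 and 4, against 33.9% of all genes each way, and 11 of the 12 and 1 of the 3 were separated under both normalizations.

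The 12 factors lower in bdf1Δ+HAL2 spread over 5 roles. Their number lay not far above the 28.7% of all genes separated this way, so they are named as a description only. DBP2 had the widest gap of the 35, with a mean of −0.62 in bdf1Δ+HAL2 and −0.23 in bdf1Δhda1Δ, followed by UTP7 with −0.35 and −0.02. UTP4 had −0.31 and −0.02, NOP12 had −0.19 and 0.11, and DBP3 had −0.49 and −0.22. The others were NOP58, UTP22, NOP4, SPB1, TIF6, NOG1 and NOG2, with differences of −0.26 to −0.12. Lower in bdf1Δhda1Δ were BRX1 with −0.31 against −0.10, NOP7 with −0.20 against −0.08 and RRP5 with −0.24 against −0.16. By print-tip loess the arrays of BRX1 and NOP7 overlapped, as did those of NOP58 among the 12, while RRP5 stayed separated. Some factors were low to a like degree in both strains. RPF2 had −0.37 and −0.32, and MAK16 had −0.35 and −0.41. EBP2 had −0.27 and −0.24, but by print-tip loess it was lower in bdf1Δ+HAL2 with no overlap of the arrays, at −0.39 and −0.26. NOP12 alone had opposite signs on every array, which 20.4% of all genes had. With 1 replicate a comparison, none of these gaps could be tested.

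**Figure D3:**
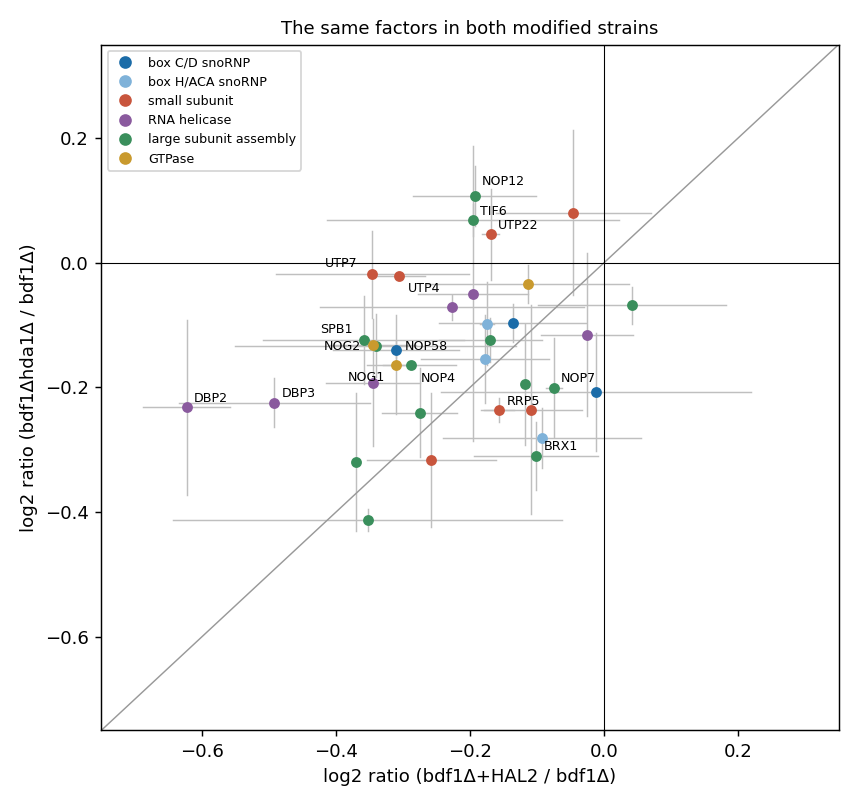
Mean log2 ratio of the 35 factors in bdf1Δ+HAL2 over bdf1Δ (x axis) and in bdf1Δhda1Δ over bdf1Δ (y axis), with lines spanning the 2 arrays of each, colours for the roles and a diagonal of equal ratios. The names mark the 12 factors lower in bdf1Δ+HAL2 and the 3 lower in bdf1Δhda1Δ whose arrays do not overlap, and NOP12 lies at −0.19 on one axis and 0.11 on the other.

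Other genes of ribosome production gave a frame for these values. The remaining small subunit factors had a median of −0.16 in bdf1Δ+HAL2, with 31 of 49 below 0 on both arrays, and −0.08 in bdf1Δhda1Δ, with 10 of 23. Those of the large subunit had −0.12, with 27 of 50, and −0.10, with 16 of 26. Of these lists RIO1, a kinase of late small subunit maturation, was lowest in bdf1Δ+HAL2 at −0.52 ± 0.14. RLP24 was the lowest of the large subunit list there, at −0.48 ± 0.08. In bdf1Δhda1Δ LTV1, an export factor of the small subunit, was lowest at −0.39 ± 0.11. REA1, the large ATPase that remodels the large subunit precursor, stood at −0.37 ± 0.09. Highest in these lists were NPA3 at 0.31 in bdf1Δ+HAL2 and JIP5 at 0.12 in bdf1Δhda1Δ, both of the large subunit list. No gene of any of the 7 lists was called in either comparison.

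The lists beyond assembly had medians on either side of 0. RNA polymerase I and its factors had medians of −0.07 over 15 genes in bdf1Δ+HAL2 and −0.13 over 5 genes in bdf1Δhda1Δ. RNA polymerase III had 0.02 and 0.04, over 14 and 3 genes, and the exosome, which trims the precursor RNAs, had −0.06 and −0.08, over 15 and 4. The regulators had 0.07 and −0.06, over 15 and 7 genes. Within them TOD6 was lowest in bdf1Δ+HAL2 at −0.44 and DOT6 in bdf1Δhda1Δ at −0.38. The highest were TPK3 in bdf1Δ+HAL2 at 0.33 and IFH1 in bdf1Δhda1Δ at 0.19. TOD6 and DOT6 are paralogues and known repressors of the ribosome biogenesis regulon. RRN3, the initiation factor of RNA polymerase I, had −0.79 and −0.21 in bdf1Δ+HAL2, the lowest of its list. HMO1 was the highest of that list, with 0.36 and 0.10.

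The cytosolic ribosomal proteins, which the factors assemble, gave other values. In bdf1Δ+HAL2 their median was 0.10 over 136 genes, with 73 above 0 and 10 below 0 on both arrays, whereas 0 of the 42 factors lay above 0 on both. Their range ran from RPS9A at −0.23 to RPS6A at 0.68. In bdf1Δhda1Δ their median was −0.00, with 49 below and 36 above 0 on both arrays. Paired ribosomal protein genes are near-identical, so their probes may not separate the copies.

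The single array of bdf1Δ against W303 gave larger and less certain values. Before normalization the median log2 ratio of the array was −1.84. Spots of the factors exceeded background in 45.9% of cases in bdf1Δ and 97.8% in W303, against 36.9% and 91.2% of all gene spots. Position on the slide, as the share of variance between 48 printing blocks, was 35.8% here and 3.18% to 10.7% on the other 4 arrays. Over the 39 factors, which lay in 28 blocks, a factor's ratio and the median of its block correlated with r = 0.67. After print-tip loess r was −0.17, but that method fits each block by itself, so a loss of correlation is built in. The part of slide position in these values was not tested. Each is therefore given by both normalizations, global loess first, and the SD is that of repeat spots, with a median of 0.22 over the factors.

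The factors had a median of 0.05 on this array, against −0.00 over 3688 genes, and 18 of 39 lay below 0, against 50.1% of all genes. By global loess 8 were called lower, where 18.4% of all genes were, and 5 higher, where 15.9% were. At 1.5-fold, 10 were lower, against 28.8% of all genes, and 8 higher, against 27.4%. By print-tip loess 2 were called lower, against 6.18% of all genes, and 2 higher, against 5.94%. No count stood far from its background. Only ENP1 (lower) and NOP15 (higher) were called by both normalizations, and the sign differed between them for 14 factors, or 35.9%, against 28.4% of all genes.

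For ENP1 the net intensity was 389 in bdf1Δ and 2892 in W303. Its log2 ratio was −1.54 ± 0.08 (SD of 3 spots) by global and −1.59 by print-tip loess. NOP15, which is required to make the large subunit, had 547 and 444, and its ratio was 1.95 ± 0.21 and 1.36. These factors lay on opposite sides under both normalizations, and neither was called in the other comparisons, where ENP1 had means of −0.05 and 0.08 and NOP15 of −0.12 and −0.19.

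Among the box C/D proteins, all 3 lay below 0 by both normalizations. NOP1 had net intensities of 712 and 3018 and ratios of −1.01 and −0.77. NOP56 had 20, which is not well above background, and 900, with nominal ratios of −1.66 and −0.61. NOP58 had 114 and 835 and ratios of −0.54 and −1.06, so it was called by print-tip loess only. The box H/ACA proteins CBF5 and NHP2 lay above 0 by both, with 0.13 and 0.22 for CBF5 and 0.10 and 0.67 for NHP2. GAR1 was called higher by global loess at 1.01 and lay at −0.69 by print-tip loess, in a block with a median ratio of 1.46.

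For the other calls the normalizations gave different pictures. RRP5 had net intensities of 110 and 1961, and its ratio of −1.95 moved to 0.26 by print-tip loess, with the opposite sign. For DBP2, DBP3, ERB1 and UTP20 bdf1Δ was not well above background, so their ratios are only nominal. Those of DBP2 were −2.04 and −0.07, those of DBP3 and ERB1 moved from −1.38 and −1.38 to −0.22 and −0.08, and those of UTP20 were −1.95 and 0.29. All 5 lay in blocks with medians from −0.92 to −0.59. UTP22 had 1.04 and 0.89, EBP2 had 1.22 and 0.44, and YTM1 had 1.01 and 0.51, so these 3 stayed above 0 by both without a second call. SPB4 was called higher by print-tip loess only, at 1.03, and had −0.49 by global loess.

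In 5 of the 8 factors called lower, bdf1Δ was not well above background, so its level there has only an upper bound. Setting W303 against that bound gave folds toward W303 of 1.52 for NOP56, 1.16 for DBP3, 1.06 for ERB1 and 1.05 for DBP2. UTP20 had no fold above 1. For NOP56, DBP3, ERB1 and DBP2 the dim spots' own level set the bound. Their folds therefore repeat the nominal print-tip ratios and are no firm lower limits. Among the factors not called, W303 was at least 1.36-fold higher for NOP2 and 1.16-fold for HAS1. NUG1 had 1.18, which likewise only repeats its nominal ratio by global loess. YTM1 had bdf1Δ not well above background as well. The remaining factors, not called by either normalization, lay between −0.81 (NOP12) and 0.93 (IMP4) by global loess.

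**Figure D4:**
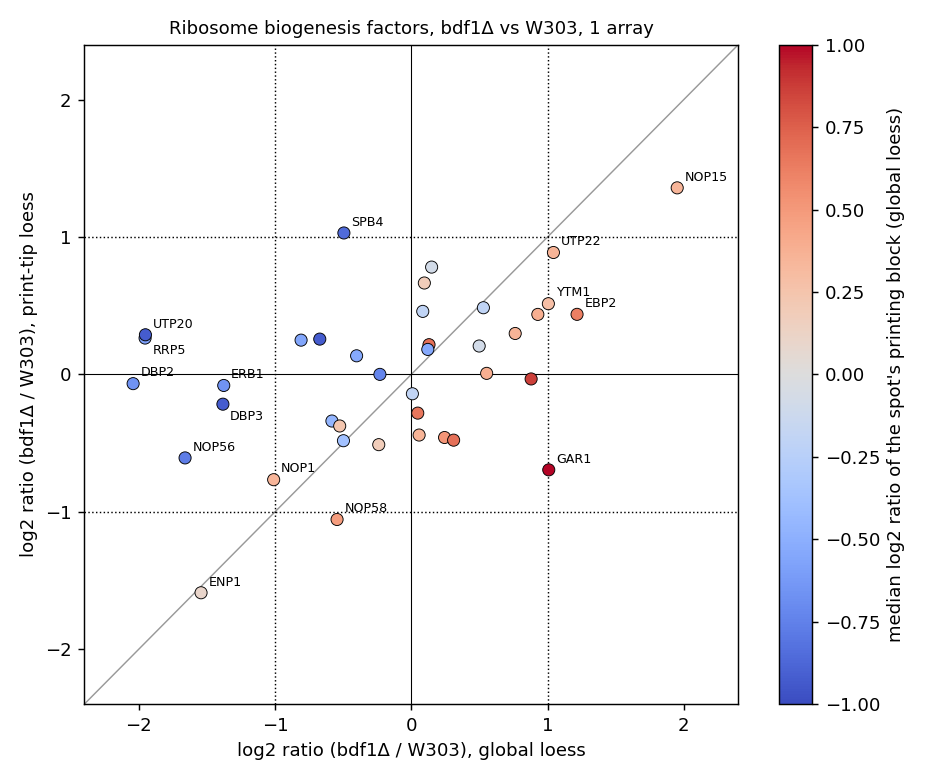
Log2 ratio of bdf1Δ over W303 for 39 factors by global loess (x axis) and by print-tip loess (y axis) on the single array, with dotted lines at 2-fold, a diagonal of equal values and colour for the median ratio of the spot's printing block. ENP1 and NOP15 lie past 2-fold on both axes, while RRP5 lies at −1.95 on one and 0.26 on the other, and blue points tend to sit left and red points right.

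On the same array the remaining small subunit factors had a median of 0.57 over 43 genes, with 5 called lower and 14 higher, and those of the large subunit −0.02 over 43, with 4 and 10. By print-tip loess the medians were 0.21 and 0.26, with 1 lower and 4 higher and with 0 and 3. Of all genes measured on this array, 18.4% were called lower and 15.9% higher by global loess, and 6.18% and 5.94% by print-tip loess. The medians of RNA polymerase I, RNA polymerase III, the exosome and the regulators were 0.36, 0.38, −0.25 and 0.74, and 0.04, −0.04, 0.30 and 0.16 by print-tip loess. Ribosomal proteins had −1.03 over 132 genes, with 68 called lower and 4 higher, and −0.20 by print-tip loess, with 14 and 3. The factors' own median stayed near 0 under both, at 0.05 and 0.01.

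Position along the chromosomes gave 1 pair of neighbours among the factors in the R64 gene table. RPF1 and GAR1 are convergent neighbours, and their means were 0.05 and −0.09 in bdf1Δ+HAL2. Both lay above 0 against W303 by global loess, at 0.76 and 1.01, and on opposite sides of 0 by print-tip loess, at 0.30 and −0.69.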

How the data were processed

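Gene expression was measured on 5 two-colour oligonucleotide arrays. Per the file headers, the deposited scanner output gives spot and local background intensity in red and green. It also gives a ratio of red over green medians, per the file headers, which was not used. The authors deposited a further table with 1 linear ratio per probe and array, centring unstated, which was used as an alternative only. Its direction, set against the scanner values, was test over reference strain on all 5 arrays, and its median was 0.195 for bdf1Δ against W303 and 0.992 to 1.04 on the other 4. The image software is not given in the sources used here. DNA labelled with Cy5 or Cy3 was made from linearly amplified total RNA, per the labels' protocols.

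Spot and background medians were corrected by normexp (offset 50) and global loess was run within arrays (limma 3.58.1, R 4.3.3), with weight 0 for control spots and spots not found. The sign was turned where the test strain was in Cy3. A spot counted when found and when at least 1 channel was 2 background SDs above its background. Genes with 2 or more of their 3 spots counted on every array of a comparison were measured, and their value is the mean of those spots. Spots of the 45 factors found by the software made up 80.7% to 99.3% per array, against 32.9% to 72.9% of all gene spots. The number of arrays limits the precision. Calls follow the rule in the labels, past 2-fold on each array. On the single array this rule rests on 1 array, although the labels speak of 2 hybridizations, and a second was not analysed here. A strain is not well above background where fewer than 2 of 3 spots exceeded background on every array. An "at least" fold is then the brighter strain's level over a bound for the dim strain. That bound is the dim spots' own level or the lowest level above background on the array, whichever is higher, by channel after Aquantile scaling. Where the own level is the higher, the fold repeats a nominal ratio and is no firm limit. The fold printed is the smaller of the values by global and print-tip loess.

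The 45 factors and the 7 other lists were chosen with earlier results of these data known. All 45 factors may be named; from the other lists, called genes, which are given here as counts, and the lowest and highest gene. The 45 symbols were those of the R64 gene table for the arrays' reading-frame names. No build is named in the files, so no coordinates are given, and a planned count of promoter motifs was not made because promoter sequences were not used here. Alternatives were print-tip loess, median centring, other background corrections, scale normalization, spot filters, the authors' ratio, a 1.5-fold threshold, each array alone and, chosen after seeing the data, the factors measured in all comparisons. The steps were tested on simulated arrays with a smooth dye trend and known fold changes larger than the group shifts given here. No printing-block effect was simulated. The simulation therefore does not bear on those small shifts or on slide position on the single array. Tables and plots were made with pandas 2.3.3, NumPy 2.4.6 and matplotlib 3.10.9 in Python 3.11.15.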

Additional observations from a re-analysis of the deposited data

Results flagged for a closer look

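NOP12, an RNA-binding protein of the large subunit precursor, lay below 0 on both arrays of bdf1Δ+HAL2 (−0.10 and −0.28) and above 0 on both arrays of bdf1Δhda1Δ (0.16 and 0.06), each against bdf1Δ. It was the only factor with opposite signs on every array, and the mean in bdf1Δ+HAL2 minus that in bdf1Δhda1Δ was −0.30. Opposite signs on every array were seen in 20.4% of the 2059 genes measured in both comparisons. The difference was not tested, since each comparison has 1 replicate.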

How the results depend on the processing

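In bdf1Δ+HAL2 the factors' median ran from −0.23 to −0.18 over 12 other settings, and in bdf1Δhda1Δ from −0.22 to −0.10, with 0 factors called. Each array alone gave medians of −0.23 and −0.18 in bdf1Δ+HAL2 and −0.13 and −0.13 in bdf1Δhda1Δ. Of single values, 428 of 462 in bdf1Δ+HAL2 and 326 of 396 in bdf1Δhda1Δ moved by less than the SD between arrays. These counts include each array alone, which by arithmetic always lies within the SD of its pair, so they overstate stability. The values against W303 have no such setting and use another SD, so the counts are not comparable. Against W303, 164 of 332 moved by less than the SD of repeat spots, and 8 values of factors called there changed sign. There, 8 factors were called lower and 5 higher. Print-tip loess called 2 lower and 2 higher, and no background correction called 7 lower and 2 higher. Scale normalization called 0 lower and 0 higher, and a 1.5-fold threshold called 10 lower and 8 higher. With only spots above background in both channels, 20 factors were left, 3 of them called lower, 5 higher and 6 below 0. The authors' deposited ratio, which is not centred, gave a median of −2.67, 30 called lower, 0 higher and 37 below 0. The log2 median of all gene probes by that ratio was −2.36, itself past 2-fold lower. After centring, the factors' median was −0.31, with 12 called lower, 10 higher and 24 below 0. Of the 13 factors called against W303, those that changed sign by print-tip loess were GAR1 (−0.69), RRP5 (0.26) and UTP20 (0.29). By the authors' deposited ratio GAR1 (−0.25), YTM1 (−1.53) and EBP2 (−0.94) changed sign, and by the same ratio centred NOP1 (0.53) and UTP20 (1.00). The causes were not tested. No paired analysis was possible because each exchanged pair is 1 replicate of its comparison. A dim bdf1Δ channel limited the values against W303, and unfound spots limited the number of factors measured in bdf1Δhda1Δ.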
